A study of Mus musculus with 15 samples.

Results

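Dermal adipocytes of mice at postnatal day 49 (P49) were compared with those at postnatal day 35 (P35) by RNA-seq, with 3 libraries at each age. These 6 libraries are part of a series of 15 that also covers P21, P25 and P29, and they were taken by their labelled age. Of 35275 genes in the deposited table, the 12259 that reached 1 FPKM in at least 3 of the 15 libraries were compared. FPKM counts fragments on a gene, corrected for its length and for the size of the library. Both ages are untreated C57BL/6 mice with no transgene or other treatment named. Dorsal skin was digested with Collagenase IV and DispaseII and the mature adipocytes were collected by flotation in a centrifuge. The labels give no sex, litter, hair cycle stage, hour of harvest or number of animals behind a library. They do not say that replicates are separate animals, so the p-values reflect only how far these libraries differ within an age, and that scatter could be technical.

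Dermal adipocytes form a layer of white fat in the lower dermis, around the hair follicles. In mouse skin this layer is known to thicken while follicles grow and to thin when they regress and rest, so that the cells enlarge and shrink with the hair cycle. Each mature adipocyte sits in a basement membrane, a sheet of type IV collagen and laminins, with fibrillar and other collagens outside it. Adipocytes make much of this sheath themselves and remodel it as they change size.

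The libraries held 23214103 to 32219574 reads counted to genes, at which 3 reads on a gene of 1 kb correspond to 0.129 and 0.0931 FPKM. Libraries correlated at r = 0.984 to 0.9902 within P35 and 0.992 to 0.994 within P49, across genes on the log2 scale, and at 0.975 to 0.986 between the ages. The mitochondrial genes took 8.05% to 10.4% of the reads at P35 and 5.69% to 7.15% at P49, with no overlap, and the part of this in the results below was not tested. One library outside the comparison, P25 replicate 2, stood apart from its age (r = 0.925 and 0.928 to the other P25 libraries, against 0.983 to 0.994 in all other same-age pairs). It enters the shared estimate of the spread, and the main counts are given with and without it.

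The libraries carried high levels of adipocyte genes at both ages. Adipoq, which encodes adiponectin, averaged 2635 ± 121 FPKM at P35 and 2491 ± 59.2 at P49, where n = 3 libraries and ± is the SD throughout. Plin1, a coat protein of the lipid droplet, averaged 1260.3 ± 77.5 and 1318 ± 71.5 FPKM. Lep, which encodes leptin, averaged 312 ± 28.1 and 268 ± 35.8 FPKM, and Pparg, the nuclear receptor of fat cell differentiation, 159.8 ± 20.8 and 126 ± 3.46 FPKM. None of the 22 tested genes of the mature adipocyte list passed the threshold in either direction. The median log2 difference of that list was 0.005, beside -0.006 over all genes tested. Its genes lay between -0.33 and 0.27.

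Between P35 and P49, 69 of 12259 genes passed an adjusted p of 0.05 by limma, which is 0.563% of the genes tested. Of these, 30 were higher at P49 (0.245%) and 39 were lower (0.318%). Genes of collagens and collagen processing, the imprinted gene Mest, Hpx and Lbp were among those that fell, and Pon1, C7, Myoc, Pcsk6 and Fgf2 were among those that rose. At an unadjusted p under 0.05 there were 1500 genes, 749 higher and 751 lower. The sizes of the 69 differences ran from 0.36 to 3.03 on the log2(FPKM + 1) scale, a scale that understates the change of genes at low levels, and 21 were 2-fold or more (6 higher and 15 lower). In all 69 genes the 3 P35 libraries and the 3 P49 libraries did not overlap, which was also true of 28.0% of all genes tested.

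The count changed with single libraries. It was 342 without P25 replicate 2, 13 without P49 replicate 1 or without P49 replicate 3, 31 without P49 replicate 2, and 39, 26 and 22 without P35 replicates 1, 2 and 3, and 49 to 85 without any other library. Each of the 69 genes kept its direction in all 24 other settings. The call held in all of these for 12 genes: Abi3bp, Adam12, Atoh8, Comp, Fmr1, Hpx, Itga6, Mest, Pcsk6, Pon1, Ptgfr and Slc4a7. For other genes named below, the adjusted p without the library whose absence raised it most is given, with the number of libraries, out of 15, whose absence ended the call.

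**Figure D1:**
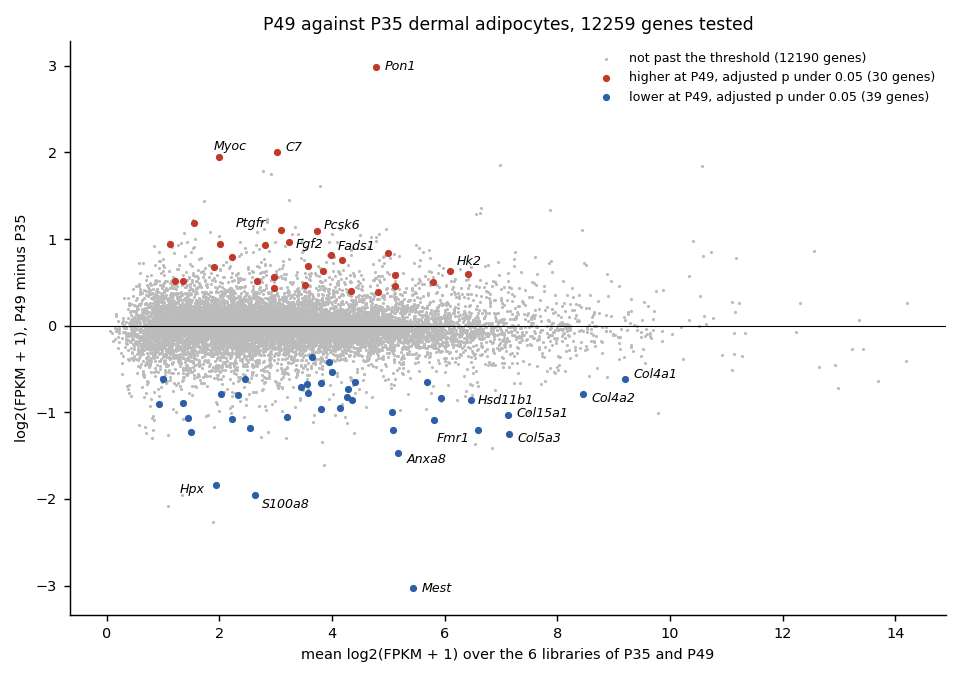
The log2(FPKM + 1) difference of P49 minus P35 (vertical axis) is plotted against the mean log2(FPKM + 1) of the 6 libraries (horizontal axis), 1 point per gene tested. Coloured points are the 30 higher and 39 lower genes past the threshold, which run from -3.03 (Mest) to 2.99 (Pon1), and grey points are the other genes.

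Of all gene lists, the extracellular matrix held the most genes that passed. Of 28 tested genes on the extracellular matrix list, 5 were lower at P49 and 0 higher, against 0.318% and 0.245% of all genes. The lists were chosen with earlier results of these data known, so this count is a description and not a test. The 5 were Col4a1 and Col4a2, which encode the chains of the main type IV collagen of basement membranes, Col5a3, a type V collagen chain, Col15a1, a collagen proteoglycan at the outer face of basement membranes, and Loxl1, which cross-links elastin and collagen. The median of the list was -0.50. The count of lower genes was 10 without P25 replicate 2, 3 and 2 without P35 replicates 2 and 3, and 0 without P49 replicate 1 or without P49 replicate 3.

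The stretches of 250 bases before the transcription starts of Col5a3 and Col15a1, collagen genes that fell by similar amounts, are shown because their sequence differs in the promoter motifs searched (RefSeq, GRCm38.p6). Each is written 5′ to 3′ on the strand of its gene, and capitals mark a match to the GC box GGGCGG or to CCAAT on either strand, so that a GC box on the other strand reads CCGCCC.
Col5a3, chr9:20815068-20815317, minus strand: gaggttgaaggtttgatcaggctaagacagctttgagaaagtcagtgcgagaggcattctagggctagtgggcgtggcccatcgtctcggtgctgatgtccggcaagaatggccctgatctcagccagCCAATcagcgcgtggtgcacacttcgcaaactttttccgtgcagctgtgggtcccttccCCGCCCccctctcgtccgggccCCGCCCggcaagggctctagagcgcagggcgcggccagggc
Col15a1, chr4:47207762-47208011, plus strand: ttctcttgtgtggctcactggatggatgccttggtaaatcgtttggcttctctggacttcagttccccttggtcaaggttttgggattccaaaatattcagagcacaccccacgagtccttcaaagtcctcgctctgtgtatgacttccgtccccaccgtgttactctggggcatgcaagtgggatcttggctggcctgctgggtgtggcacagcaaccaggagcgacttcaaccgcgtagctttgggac
The Col5a3 window held 2 GC boxes and 1 CCAAT box, and the Col15a1 window held neither. Neither window held the TATA motif, searched as TATAAA, or the AP-1 motif, searched as TGACTCA. Across the 32851 windows of all genes, 32.7% held the GC box, 33.8% the CCAAT box, 12.4% the TATA motif and 4.46% the AP-1 motif on either strand. Windows were matched for 25 of the 39 genes that fell, and 14, 11, 2 and 1 of these genes held the motifs in that order. Counted per gene with any of its windows, the shares over all 27025 genes were 35.4%, 37.5%, 14.3% and 5.16%. These matches describe the letters and say nothing of which factor binds, and the RefSeq start of Col15a1 lies upstream of the gene start in the deposited table.

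Col5a3 (ENSMUSG00000004098, chromosome 9, 20770050 to 20815067, GRCm38) stood at 226, 190.4 and 234 FPKM in the 3 P35 libraries and 77.4, 99.9 and 94.3 FPKM in the 3 P49 libraries. Every P49 library lay below every P35 library. The fall was from 217 ± 23.2 to 90.6 ± 11.7 FPKM (log2 -1.25, SE 0.19, adjusted p = 0.0112; 0.077 without P49 replicate 1, the highest of 3 such libraries). Col15a1 (ENSMUSG00000028339, chromosome 4, 47208161 to 47313167, GRCm38) stood at 190.1, 199 and 211 FPKM in the 3 P35 libraries and 89.5, 106 and 97.1 FPKM in the 3 P49 libraries. These groups too were separate, and the fall was from 199.9 ± 10.5 to 97.4 ± 8.08 FPKM (log2 -1.03, SE 0.15, adjusted p = 0.0104; 0.0658 without P49 replicate 1, the highest of 3 such libraries). Loxl1 stood at 47.5, 58.8 and 45.9 FPKM in the 3 P35 libraries and 18.6, 26.5 and 19.4 FPKM in the 3 P49 libraries, and fell from 50.7 ± 7.06 to 21.5 ± 4.33 FPKM (log2 -1.21, SE 0.18, adjusted p = 0.0112; 0.0799 without P49 replicate 1, the highest of 3 such libraries).

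Col4a1 and Col4a2 lie head to head on chromosome 8, with starts at 11312826 on the minus strand and 11312805 on the plus strand, so that the gene models share 22 bases. They were the most abundant of the matrix genes that fell, after correction for length in FPKM. Col4a1 (ENSMUSG00000031502) stood at 761, 730.3 and 693 FPKM in the 3 P35 libraries and 449, 483 and 489.9 FPKM in the 3 P49 libraries (log2 -0.62, SE 0.11, adjusted p = 0.0237; 0.151 without P49 replicate 1, the highest of 6 such libraries). Col4a2 (ENSMUSG00000031503) stood at 465, 462 and 452 FPKM in the 3 P35 libraries and 256, 273 and 269 FPKM in the 3 P49 libraries (log2 -0.79, SE 0.11, adjusted p = 0.0104; 0.0658 without P49 replicate 1, the highest of 2 such libraries). In both, the 3 P49 libraries lay below all 3 P35 libraries.

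Members of the same machinery, those above included, were counted in further lists drawn up after the values were seen. Of all genes tested, 0.318% were lower at P49. Of all collagen chains, 24 of 44 were tested, 4 were lower (those above) and 18 had a difference below 0. Col6a1, a microfibril-forming collagen chain, stood at 151, 243 and 172 FPKM in the 3 P35 libraries and 60.04, 93.3 and 58.7 FPKM in the 3 P49 libraries, a log2 difference of -1.41 that did not pass (adjusted p = 0.0534). Of 18 enzymes that modify or cross-link collagen, 2 were lower, Loxl1, already counted above, and Plod3. Plod3, which hydroxylates and glycosylates collagen lysines, fell from 63.8 ± 6.01 to 40.3 ± 3.06 FPKM (log2 -0.65, SE 0.11, adjusted p = 0.0255; 0.148 without P49 replicate 1, the highest of 6 such libraries). It overlaps Znhit1 on the other strand by 1003 bases, and use of the strand in counting is not given in the sources used here, so reads in the shared stretch cannot be told apart. None of 12 laminins, nidogens and other basement membrane proteins passed, and 9 were below 0.

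Integrin genes were on another list drawn up after the values were seen, and 0.563% of all genes tested passed. The integrin subunit Itga6, part of a laminin receptor at the cell surface, was the 1 of 12 integrin genes tested that passed. It stood at 22.6, 23.9 and 25.8 FPKM in the 3 P35 libraries and 13.8, 14.6 and 14.03 FPKM in the 3 P49 libraries. The P49 libraries were all below the P35 libraries, and the fall was from 24.1 ± 1.63 to 14.1 ± 0.387 FPKM (log2 -0.73, SE 0.09, adjusted p = 0.00338, and at most 0.0291 with any 1 of the 15 libraries left out). Comp, a pentameric thrombospondin of the matrix, stood at 1.79, 1.71 and 1.31 FPKM in the 3 P35 libraries and 0.383, 0.442 and 0.348 FPKM in the 3 P49 libraries, and fell from 1.604 ± 0.262 to 0.391 ± 0.0476 FPKM (log2 -0.90, SE 0.12, adjusted p = 0.00405, and at most 0.0351 with any 1 of the 15 libraries left out). Adam12, a membrane metalloprotease, stood at 7.58, 8.79 and 7.17 FPKM in the 3 P35 libraries and 2.84, 2.95 and 2.87 FPKM in the 3 P49 libraries, again without overlap, and fell from 7.85 ± 0.843 to 2.89 ± 0.0543 FPKM (log2 -1.18, SE 0.14, adjusted p = 0.0034, and at most 0.0291 with any 1 of the 15 libraries left out). Abi3bp, a secreted matrix protein, moved the other way. It rose from 12.95 ± 0.451 to 22.7 ± 1.82 FPKM (log2 0.76, SE 0.10, adjusted p = 0.0034, and at most 0.0336 with any 1 of the 15 libraries left out). Plod3, Itga6 and Comp were outside the rule for naming genes and were chosen after their values were seen.

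**Figure D2:**
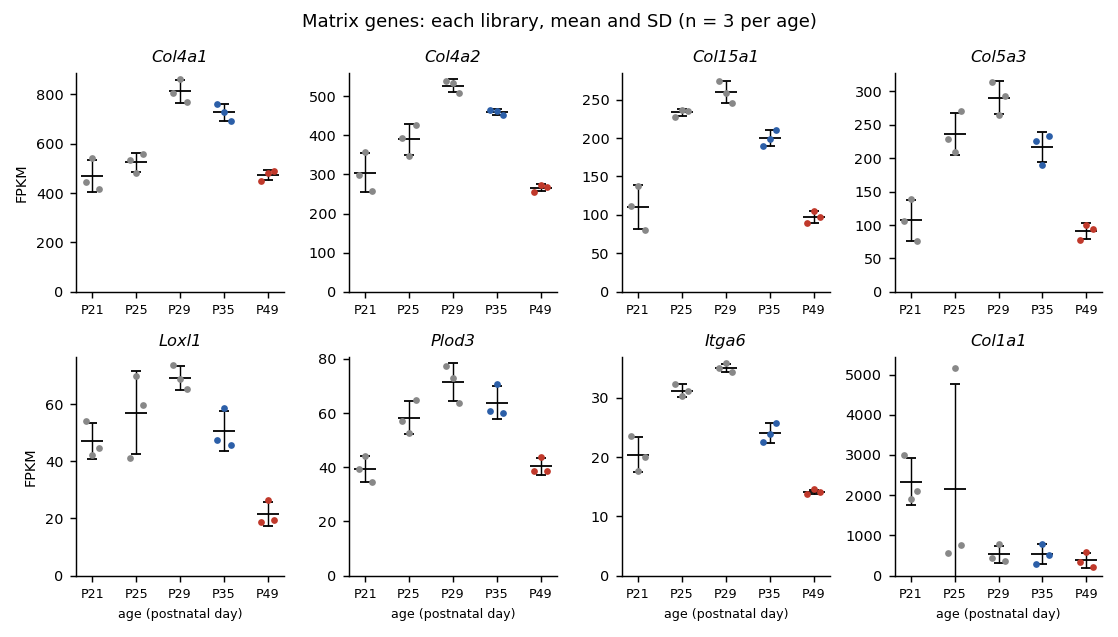
FPKM (vertical axis) of 8 matrix and matrix receptor genes in every library at the 5 ages (horizontal axis), with the mean and SD of each age. Points are libraries. Col4a1, Col4a2, Col5a3, Col15a1, Loxl1, Plod3 and Itga6 have all 3 P49 libraries below all 3 P35 libraries, and Col1a1, whose P25 error bar is cut at 0, does not pass between P35 and P49.

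Fibroblasts also make collagens, and the fibroblast list had overlapping levels. Of 18 preadipocyte and fibroblast genes 0 passed, with 1 higher and 0 lower at an unadjusted p under 0.05. Their summed level was 992 to 2257 FPKM at P35 and 895 to 1702 FPKM at P49. Col1a1, the main fibroblast collagen, averaged 534 ± 253 and 381 ± 186 FPKM, and Pdgfra, a fibroblast receptor, 3.097 ± 1.32 and 3.47 ± 0.681 FPKM. Endothelial cells also make type IV collagen. All 15 endothelial genes were below 0, with 0 past the threshold or at an unadjusted p under 0.05. Their sum was 91.4 to 148 FPKM at P35 and 62.5 to 97.8 at P49, and Pecam1 averaged 15.3 ± 3.23 and 11.4 ± 1.58 FPKM. No gene of either list was at 0 in all 6 libraries, and the part of these cells in the matrix falls was not tested. In bulk samples fewer cells of a type and less RNA per cell cannot be told apart.

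Mest showed the largest difference of all genes past the threshold. This imprinted gene, expressed from the paternal copy, encodes a hydrolase-like protein of the endoplasmic reticulum and is known to rise in fat that expands. Mest (ENSMUSG00000051855, chromosome 6, 30723547 to 30748455, GRCm38) stood at 113, 123 and 135 FPKM in the 3 P35 libraries and 15.05, 14.5 and 13.1 FPKM in the 3 P49 libraries. The P49 libraries were within a narrow band far below those at P35. The fall was from 124 ± 11.2 to 14.2 ± 1.02 FPKM, a ratio of 8.701 (log2 -3.03, SE 0.35, adjusted p = 0.00338, and at most 0.0268 with any 1 of the 15 libraries left out). In order of age from P21 on, the means were 27.8, 63.5, 121, 124 and 14.2 FPKM. The highest were those of P29 and P35, and P49 had the lowest of the 5.

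Klf14, a zinc finger transcription factor that is imprinted with expression from the maternal copy, lies 207567 bases from Mest on chromosome 6. It stood at 5.55, 4.89 and 6.99 FPKM in the 3 P35 libraries and 2.29, 2.24 and 2.12 FPKM in the 3 P49 libraries. The ages were separate, and Klf14 fell from 5.81 ± 1.07 to 2.22 ± 0.0901 FPKM (log2 -1.07, SE 0.16, adjusted p = 0.0112; 0.0691 without P49 replicate 3, the highest of 3 such libraries). Copg2, which overlaps the end of Mest by 902 bases on the other strand and encodes a coat protein of Golgi vesicles, averaged 19.1 ± 1.88 and 15.4 ± 0.781 FPKM and did not pass (log2 -0.29, adjusted p = 0.351). Of 19 tested genes on the list of imprinted growth genes, Mest alone was lower and 0 were higher, with a median of -0.004. Over all genes tested, 0.318% were lower. At an unadjusted p under 0.05, 2 genes of the list were lower and 0 higher, and without P25 replicate 2, 2 were called lower. Klf14 is not on that list.

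Among genes of lipid and energy handling, Hsd11b1, Cpt1a, Abcg1 and Pde2a fell and Fads1 and Hk2 rose. Hsd11b1, which regenerates active glucocorticoid inside the cell, stood at 121, 120.5 and 112 FPKM in the 3 P35 libraries and 63.8, 66.4 and 62.9 FPKM in the 3 P49 libraries. All P49 libraries were lower, and the fall was from 118 ± 5.202 to 64.4 ± 1.81 FPKM (log2 -0.86, SE 0.17, adjusted p = 0.0456; 0.182 without P35 replicate 2, the highest of 11 such libraries), and by voom on recovered reads the adjusted p of Hsd11b1 was 0.0652. Cpt1a, which admits long-chain fatty acids to the mitochondrion for oxidation, stood at 23.1, 27.04 and 29.8 FPKM in the 3 P35 libraries and 16.2, 13.5 and 13.03 FPKM in the 3 P49 libraries. It fell from 26.6 ± 3.39 to 14.2 ± 1.698 FPKM without overlap (log2 -0.86, SE 0.14, adjusted p = 0.0204; 0.109 without P49 replicate 3, the highest of 5 such libraries). Cpt1a was the 1 of 19 tested fatty acid oxidation genes that was lower, with 0 higher and a list median of -0.08. Over all genes tested, 0.318% were lower and 0.245% higher. The muscle-type isoform Cpt1b was below the filter and was not tested.

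Fads1, the delta-5 desaturase that makes arachidonic acid, stood at 10.5, 11.1 and 11.1 FPKM in the 3 P35 libraries and 21.1, 19.2 and 19.7 FPKM in the 3 P49 libraries. Each P49 library exceeded each P35 library. The rise was from 10.9 ± 0.317 to 20.003 ± 0.995 FPKM (log2 0.82, SE 0.14, adjusted p = 0.0236; 0.14 without P49 replicate 1, the highest of 6 such libraries), and Fads1 was the 1 of 17 tested fatty acid synthesis genes that was higher, with 0 lower. Over all genes tested, 0.245% were higher. The list median was 0.25, and 15 of the 17 were above 0. Their summed level was 6420.0 to 8422 FPKM at P35 and 11070 to 12240 FPKM at P49, without overlap. Of the 4141 FPKM between the mean sums, 3654 FPKM were of Scd1, and the sums of the other 16 genes overlapped, at 2601 to 3286 FPKM and 3119.66 to 3668 FPKM. Scd1, the stearoyl-CoA desaturase, averaged 4517 ± 662 and 8171 ± 347 FPKM (log2 0.86, adjusted p = 0.169) and Fasn, the fatty acid synthase, 816 ± 138 and 1084 ± 148 FPKM (log2 0.41, adjusted p = 0.714), and neither passed.

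Dgat2, which completes triglyceride synthesis, averaged 1089.95 ± 92.9 and 1018 ± 21.8 FPKM (adjusted p = 0.891). The lipases Pnpla2 (1182 ± 213 and 1159.9 ± 28.7 FPKM, adjusted p = 0.991) and Lipe (447 ± 55.02 and 441 ± 16.8 FPKM, adjusted p = 0.989), which release fatty acids from stored fat, did not pass either. None of 11 triglyceride synthesis genes, 18 lipolysis genes, 23 cholesterol synthesis genes, 17 genes of the tricarboxylic acid cycle or 30 oxidative phosphorylation genes passed in either direction. Of the 23 cholesterol synthesis genes 17 were above 0, with a median of 0.17. At an unadjusted p under 0.05, 4 of them were higher and 1 lower. Without P25 replicate 2, 1 cholesterol synthesis gene and 1 triglyceride synthesis gene were called higher. Of the 30 oxidative phosphorylation genes 29 were below 0 (26 with quantile normalization, 29 with median-ratio scaling), with a median of -0.12, and 3 were lower at an unadjusted p under 0.05. Their summed level was 4281 to 4726 FPKM at P35 and 4063 to 4213 FPKM at P49, without overlap, and 1 was called lower without P25 replicate 2. Of the 18 lipolysis genes 13 were below 0, with a median of -0.11 and 1 lower at an unadjusted p under 0.05. Their sum was 15188 to 17312 FPKM at P35 and 13954 to 14343 FPKM at P49, and without the fatty acid carrier Fabp4 it overlapped, at 3862 to 4550.47 and 4016 to 4303 FPKM. Hk2, the insulin-responsive hexokinase, rose from 54.3 ± 5.87 to 84.7 ± 1.43 FPKM (log2 0.64, SE 0.10, adjusted p = 0.0122; 0.0799 without P49 replicate 1, the highest of 5 such libraries). It was the 1 of 18 tested hypoxia and glycolysis genes that was higher, against 0.245% of all genes tested. Abcg1, which exports cholesterol, fell from 14.5 ± 1.11 to 8.08 ± 0.542 FPKM (log2 -0.78, SE 0.14, adjusted p = 0.0355; 0.17 without P35 replicate 2, the highest of 8 such libraries) and was chosen after its values were seen. Pde2a, a phosphodiesterase that breaks down cyclic AMP and cyclic GMP, fell from 23.7 ± 1.41 to 11.8 ± 1.92 FPKM (log2 -0.95, SE 0.17, adjusted p = 0.0322; 0.175 without P49 replicate 1, the highest of 5 such libraries).

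Pon1 had the largest rise. It encodes paraoxonase, a lactonase best known as a liver product carried on high-density lipoprotein. Its 250 bases before the transcription start are shown as those of the gene that rose most (RefSeq, GRCm38.p6, 5′ to 3′ on the strand of the gene), with the CCAAT motif in capitals, here ATTGG because it lies on the other strand.
Pon1, chr6:5193947-5194196, minus strand: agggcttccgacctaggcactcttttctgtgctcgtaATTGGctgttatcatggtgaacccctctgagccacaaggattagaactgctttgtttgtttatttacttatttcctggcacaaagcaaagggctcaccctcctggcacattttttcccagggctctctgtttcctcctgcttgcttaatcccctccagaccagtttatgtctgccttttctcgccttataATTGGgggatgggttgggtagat
This window held 2 CCAAT boxes and none of the other 3 motifs. Of the 30 genes that rose, 23 were matched to windows, and 14 of these held the GC box, 9 the CCAAT box, 3 the TATA motif and 1 the AP-1 motif. The shares among all genes with a RefSeq window, tested here or not, are those given with the collagen windows.

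Pon1 (ENSMUSG00000002588, chromosome 6, 5168090 to 5193946, GRCm38) stood at 11.1, 8.65 and 6.995 FPKM in the 3 P35 libraries and 72.05, 65.03 and 95.7 FPKM in the 3 P49 libraries. The lowest P49 library was several times the highest P35 library. The rise was from 8.91 ± 2.05 to 77.6 ± 16.1 FPKM, a ratio of 8.71 (log2 2.99, SE 0.32, adjusted p = 0.00207, and at most 0.0175 with any 1 of the 15 libraries left out). Mean levels from P21 to P49, in order of age, were 12.9, 4.31, 5.45, 8.91 and 77.6 FPKM. The P49 mean was the highest of the 5, and the means of the 4 earlier ages lay between 4.31 and 12.9 FPKM.

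C7, a terminal complement component, stood at 2.07, 4.76 and 2.74 FPKM in the 3 P35 libraries and 14.98, 18.1 and 13.1 FPKM in the 3 P49 libraries. The rise was from 3.19 ± 1.401 to 15.4 ± 2.54 FPKM (log2 2.01, SE 0.40, adjusted p = 0.0471; 0.178 without P49 replicate 2, the highest of 12 such libraries). Myoc, the secreted glycoprotein myocilin, stood at 0.601, 1.52 and 1.07 FPKM in the 3 P35 libraries and 8.04, 6.304 and 6.31 FPKM in the 3 P49 libraries, and rose from 1.06 ± 0.459 to 6.89 ± 1.003 FPKM (log2 1.95, SE 0.36, adjusted p = 0.0322; 0.169 without P49 replicate 1, the highest of 7 such libraries). In both genes every P49 library exceeded every P35 library.

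Pcsk6, a convertase that cleaves growth factor precursors, stood at 8.85, 7.65 and 7.96 FPKM in the 3 P35 libraries and 20.1, 17.3 and 18.2 FPKM in the 3 P49 libraries. The groups were separate, and Pcsk6 rose from 8.16 ± 0.624 to 18.5 ± 1.44 FPKM (log2 1.09, SE 0.11, adjusted p = 0.00167, and at most 0.0175 with any 1 of the 15 libraries left out). Ptgfr, the receptor of prostaglandin F2 alpha, rose from 4.82 ± 0.509 to 11.7 ± 2.62 FPKM (log2 1.10, SE 0.14, adjusted p = 0.0034, and at most 0.0217 with any 1 of the 15 libraries left out). Atoh8, a basic helix-loop-helix transcription factor, stood at 3.66, 4.09 and 4.49 FPKM in the 3 P35 libraries and 8.05, 9.58 and 8.41 FPKM in the 3 P49 libraries. It had the smallest adjusted p of the genes that rose, together with Pcsk6, and rose from 4.08 ± 0.418 to 8.68 ± 0.799 FPKM (log2 0.93, SE 0.10, adjusted p = 0.00167, and at most 0.0175 with any 1 of the 15 libraries left out).

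Fgf2, a growth factor for many mesenchymal cells, stood at 5.91, 5.68 and 5.68 FPKM in the 3 P35 libraries and 13.8, 11.3 and 11.7 FPKM in the 3 P49 libraries, and rose from 5.76 ± 0.129 to 12.3 ± 1.304 FPKM (log2 0.97, SE 0.15, adjusted p = 0.0112; 0.0799 without P49 replicate 1, the highest of 4 such libraries). Nudt6, which overlaps it on the other strand by 468 bases, rose from 8.38 ± 1.14 to 14.1 ± 1.32 FPKM (log2 0.69, SE 0.14, adjusted p = 0.0494; 0.231 without P35 replicate 2, the highest of 12 such libraries), and by voom its adjusted p was 0.0531. Reads in the shared stretch of Fgf2 and Nudt6 cannot be told apart, since use of the strand in counting is not given in the sources used here. Of the 69 genes, 20 overlap another tested gene and 17 do so on the opposite strand.

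Further rises, of Gstt1, Adrbk2, Birc2, Sowahc and Slc4a7, had log2 differences from 0.83 down to 0.52. Gstt1, a glutathione transferase, rose from 22.8 ± 0.983 to 41.5 ± 3.82 FPKM (log2 0.83, SE 0.14, adjusted p = 0.0221; 0.14 without P49 replicate 1, the highest of 6 such libraries). Adrbk2, a kinase that desensitises G protein-coupled receptors, rose from 2.6 ± 0.497 to 5.23 ± 0.7304 FPKM (log2 0.79, SE 0.12, adjusted p = 0.0112; 0.0807 without P49 replicate 1, the highest of 3 such libraries). Birc2, an inhibitor of apoptosis, rose from 10.5 ± 0.852 to 16.9 ± 2.06 FPKM (log2 0.63, SE 0.09, adjusted p = 0.0112; 0.0658 without P49 replicate 1, the highest of 3 such libraries). The ankyrin repeat gene Sowahc reached 104 ± 11.7 from 68.1 ± 2.04 FPKM (log2 0.60, SE 0.10, adjusted p = 0.0199; 0.107 without P49 replicate 1, the highest of 5 such libraries). Slc4a7, a sodium bicarbonate cotransporter chosen after its values were seen, reached 6.63 ± 0.187 from 4.32 ± 0.213 FPKM (log2 0.52, SE 0.07, adjusted p = 0.00756, and at most 0.0436 with any 1 of the 15 libraries left out).

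**Figure D3:**
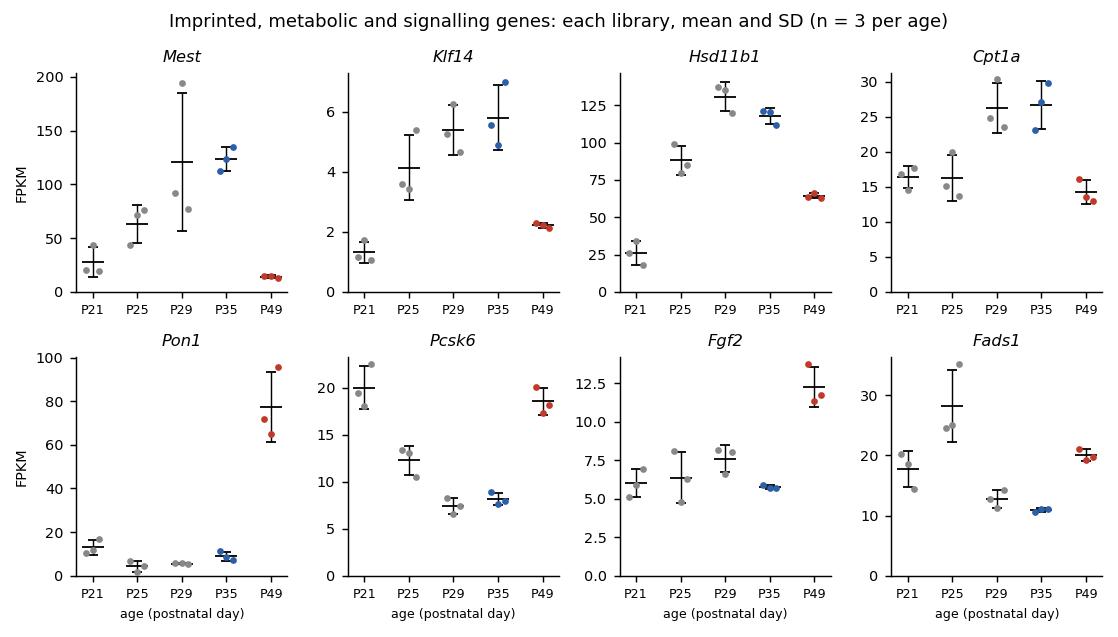
FPKM (vertical axis) of Mest, Klf14, Hsd11b1, Cpt1a, Pon1, Pcsk6, Fgf2 and Fads1 in every library at the 5 ages (horizontal axis), with the mean and SD of each age. Points are libraries. The first 4 genes have all P49 libraries below all P35 libraries and the other 4 all above, and Mest falls to a mean of 14.2 FPKM while Pon1 reaches 77.6.

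Hpx, which encodes the haem scavenger haemopexin, stood at 5.57, 8.21 and 5.33 FPKM in the 3 P35 libraries and 0.943, 1.37 and 0.809 FPKM in the 3 P49 libraries. The P49 libraries were all lower, and Hpx fell from 6.37 ± 1.595 to 1.04 ± 0.293 FPKM (log2 -1.84, SE 0.19, adjusted p = 0.00167, and at most 0.0175 with any 1 of the 15 libraries left out). Lbp, which presents bacterial lipopolysaccharide to its receptor, fell from 81.4 ± 12.4 to 37.4 ± 1.77 FPKM (log2 -1.09, SE 0.17, adjusted p = 0.0131; 0.0807 without P49 replicate 1, the highest of 5 such libraries). Ltc4s, which makes leukotriene C4, fell from 12.5 ± 2.86 to 5.4 ± 0.0449 FPKM (log2 -1.05, SE 0.19, adjusted p = 0.0283; 0.144 without P35 replicate 2, the highest of 5 such libraries). None of these genes is on the list of antimicrobial and acute phase genes, of whose 17 tested members 7 were above 0.

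S100a8, a subunit of calprotectin made in quantity by neutrophils, stood at 10.0001, 22.7 and 5.94 FPKM in the 3 P35 libraries and 3.12, 2.13 and 1.44 FPKM in the 3 P49 libraries. The fall was from 12.9 ± 8.75 to 2.23 ± 0.849 FPKM (log2 -1.95, SE 0.38, adjusted p = 0.0437; 0.182 without P49 replicate 3, the highest of 12 such libraries), and by voom the adjusted p of S100a8 was 0.116. It is also on the neutrophil list, whose summed level was 13.99 to 49.96 FPKM at P35 and 8.21 to 10.4 at P49, and none of the 9 genes of that list was at 0 in all 6 libraries. The part of neutrophil RNA in this fall was not tested. S100a8 was the 1 of 17 tested antimicrobial and acute phase genes that was lower, with 0 higher and a median of -0.14. Over all genes tested, 0.318% were lower. At an unadjusted p under 0.05, 6 genes of the list were lower and 1 higher. Voom called 0 of the 17, and without P25 replicate 2, 2 were called lower.

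Anxa8, an annexin, fell from 60.9 ± 16.6 to 20.9 ± 0.667 FPKM (log2 -1.46, SE 0.24, adjusted p = 0.0199; 0.107 without P49 replicate 1, the highest of 5 such libraries). Fmr1, whose product binds messenger RNA and controls its translation, stood at 133, 146 and 159.6 FPKM in the 3 P35 libraries and 61.2, 64.5 and 63.6 FPKM in the 3 P49 libraries. It fell from 146 ± 13.05 to 63.1 ± 1.72 FPKM without overlap (log2 -1.20, SE 0.15, adjusted p = 0.0034, and at most 0.0312 with any 1 of the 15 libraries left out). Rpl39l, a ribosomal protein gene whose reads could be shared with near-identical copies, so that its level is uncertain, fell from 46.7 ± 2.995 to 22.9 ± 2.795 FPKM (log2 -1.001, SE 0.16, adjusted p = 0.0131; 0.0837 without P49 replicate 3, the highest of 5 such libraries). Lrp5, a Wnt co-receptor chosen after its values were seen, fell from 13.2 ± 0.6 to 10.1 ± 0.407 FPKM (log2 -0.36, SE 0.07, adjusted p = 0.0456; 0.196 without P35 replicate 2, the highest of 13 such libraries), the smallest of the called differences, with an adjusted p of 0.0516 by voom.

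Several of the 69 genes were neighbours. Pairs of called genes within 1 Mb of each other included Mest with Klf14, Col4a1 with Col4a2, Fgf2 with Nudt6, Cldn15 with Plod3, Cpt1a with Lrp5, and Lrp5 with Rhod. In each of these pairs both members moved the same way. Among them, gaps between neighbours that do not overlap ran from 11160 bases (Cldn15 and Plod3) to 738894 bases (Lrp5 and Rhod). No count expected of genes placed at random was computed.

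Hormone and clock lists showed few calls. Of 16 tested glucocorticoid target genes, Klf9 was higher and Hsd11b1, described above, lower, against 0.245% higher and 0.318% lower over all genes. Klf9, a transcription factor induced by glucocorticoid and thyroid hormone, rose from 45.9 ± 5.83 to 65.2 ± 2.27 FPKM (log2 0.50, SE 0.10, adjusted p = 0.0471; 0.199 without P35 replicate 2, the highest of 12 such libraries), and by voom its adjusted p was 0.0542. The median of the list was 0.32, 13 of the 16 were above 0, and the summed level was 3029 to 3238 FPKM at P35 and 4862 to 5418 FPKM at P49. None of 17 tested circadian clock genes passed by limma or by voom, and 2 were higher without P25 replicate 2. Of these 15 were above 0 and 10 were higher at an unadjusted p under 0.05, with a median of 0.47. Their summed level was 344 to 472 FPKM at P35 and 531 to 578 FPKM at P49, without overlap, and the hour of harvest is not labelled. Its part in these values was not tested. Of 20 growth hormone and IGF genes 0 passed, and Igf1 averaged 87.99 ± 11.7 and 64.2 ± 4.76 FPKM (adjusted p = 0.302).

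Signals by which adipocytes and follicles are known to speak to each other gave 0 calls among 23 hair cycle signals, a list of bone morphogenetic proteins, fibroblast growth factors, Wnt inhibitors and their like, with a median of 0.02 and 0 higher and 3 lower at an unadjusted p under 0.05. None of 7 Wnt target genes passed (2 higher at an unadjusted p under 0.05, both past the threshold without P25 replicate 2), nor did any of 16 TGF-beta and BMP targets (2 higher). None of 19 matrix proteases and their inhibitors passed by limma, 3 were higher at an unadjusted p under 0.05, and voom called 1 of them higher. Their median was 0.44 and their sum 457 to 543 FPKM at P35 and 643 to 684 at P49, without overlap. Of 43 lists, 35 held no called gene, 10 of these held none at an unadjusted p under 0.05, and 34 held none called by voom. Without P25 replicate 2, 20 of the 35 still held none.

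Summed levels of the keratinocyte, hair shaft, dermal papilla, melanocyte and sebaceous gland lists were at most 30.2 FPKM at either age. The erythroid, mast cell and macrophage sums reached 60.6, 212 and 2109 FPKM at P35. The summed levels of the keratinocyte, hair shaft and erythroid lists were lower at P49 without overlap, and those of the mast cell, dermal papilla, melanocyte and sebaceous gland lists overlapped. All 10 keratinocyte, 6 hair shaft and inner root sheath, 5 erythroid and 5 mast cell genes tested were below 0, and 0 of them passed, with 3, 1, 4 and 1 at an unadjusted p under 0.05. The summed keratinocyte level was 24.3 to 30.2 FPKM at P35 and 10.1 to 12.7 at P49. The hair shaft sum was 3.79 to 29.3 FPKM at P35 and 0.138 to 0.473 at P49. Krt71, a keratin of the inner root sheath, stood at 1.73, 2.72 and 7.29 FPKM in the 3 P35 libraries and 0.0193, 0 and 0.0805 FPKM in the 3 P49 libraries, and did not pass (log2 -2.09, adjusted p = 0.351). Krt14, of basal keratinocytes, averaged 0.625 ± 0.02904 and 0.504 ± 0.233 FPKM (adjusted p = 0.917).

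The erythroid sum was 55.6 to 60.6 FPKM at P35 and 13.5 to 40.6 at P49, and the beta globin Hbb-bs averaged 26.3 ± 1.62 and 13.3 ± 6.39 FPKM (adjusted p = 0.37). The mast cell sum was 49.9 to 212 FPKM at P35 and 24.3 to 56.2 at P49. The dermal papilla sum was 13.997 to 21.4 and 13.7 to 15.7 FPKM, and 3 of its 8 tested genes were above 0. The melanocyte sum was 8.397 to 9.56 and 7.53 to 8.82 FPKM. All 3 tested sebaceous gland genes were above 0, with sums of 14.6 to 17.99 and 15.7 to 18.5 FPKM, and 0 of these 3 lists' genes passed. Macrophage levels overlapped, with a sum of 1067 to 2109 FPKM at P35 and 1117 to 1550 FPKM at P49, and the lysozyme gene Lyz2 averaged 395 ± 147 and 382 ± 66.7 FPKM (adjusted p = 0.997). The muscle actin Acta1 averaged 17.2 ± 6.65 and 21.3 ± 1.82 FPKM (adjusted p = 0.87). None of 17 cell cycle genes passed and all were below 0. The proliferation marker Mki67 averaged 1.04 ± 0.5395 and 0.589 ± 0.215 FPKM (adjusted p = 0.801). The part of these cells in the falls above was not tested.

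**Figure D4:**
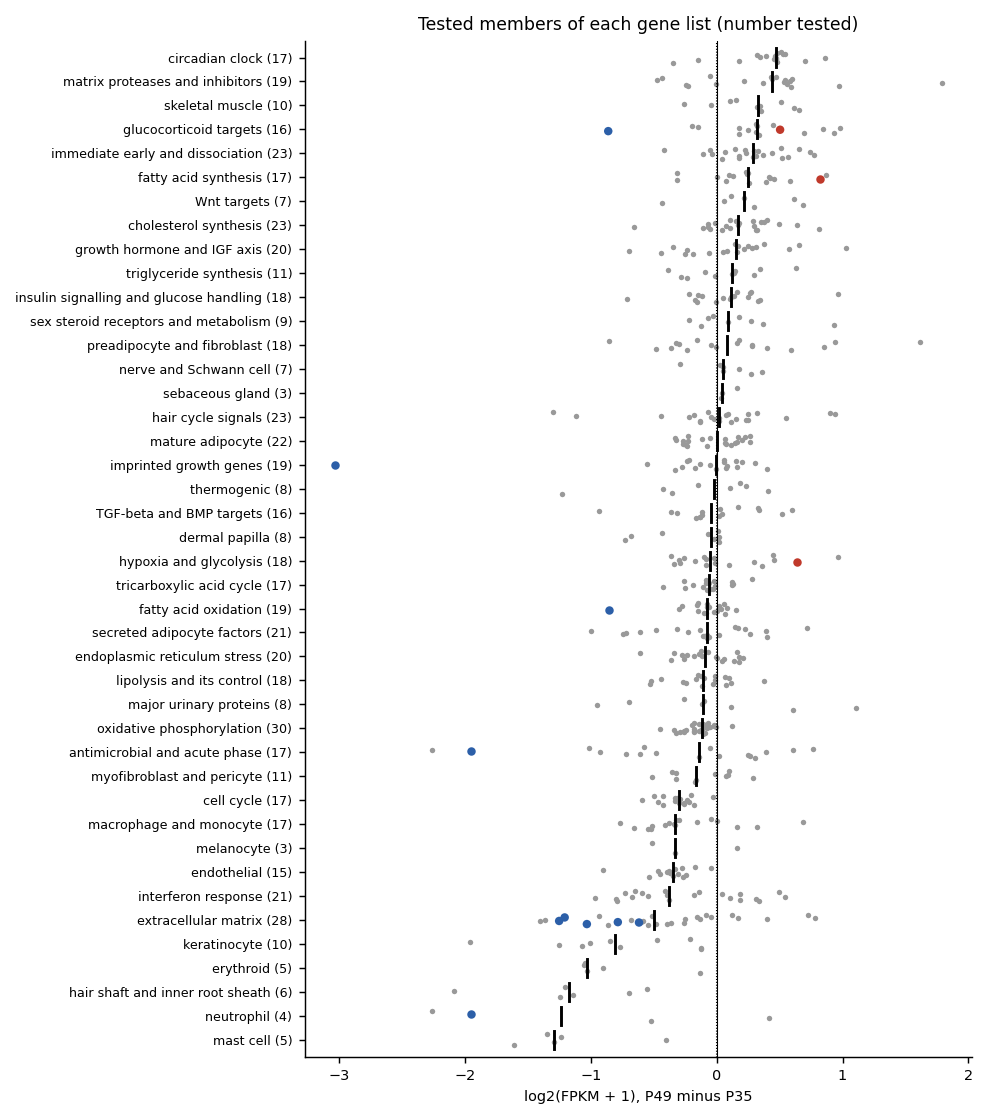
The log2(FPKM + 1) difference of P49 minus P35 (horizontal axis) for every tested member of each gene list with at least 3 tested genes (vertical axis, number tested in brackets). Larger coloured points passed the threshold (red higher, blue lower), black bars are the medians of the lists, and the dotted line is the median of all genes, -0.006. The extracellular matrix row holds 5 coloured points, all below 0.

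In order of age from P21 to P49, Col5a3 averaged 107, 236, 290.3, 217 and 90.6 FPKM. At the same 5 ages Hsd11b1 averaged 25.7, 88.04, 131, 118 and 64.4 FPKM and Atoh8 8.42, 3.87, 5.06, 4.08 and 8.68 FPKM. Cpt1a averaged 16.4, 16.3, 26.2, 26.6 and 14.2 FPKM.

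The step from P21 to P25 shares no library with P35 or P49, though it shares the estimate of the spread. There 2312 genes passed, 18.9% of those tested (8.38% higher at P25 and 10.5% lower). Of the 69 genes 36 passed in both intervals, which is 52.2% of the 69 and 1.56% of the 2312. In 33 of the 36 the direction was opposite, 18 higher at P25 and then lower at P49, and 15 lower at P25 and then higher at P49. The 18 included Col5a3 (log2 1.17 from P21 to P25 and -1.25 from P35 to P49), Col15a1 (1.11 and -1.03), Hsd11b1 (1.78 and -0.86), Hpx (1.33 and -1.84) and Fmr1 (1.31 and -1.20). The 15 included Pon1 (-1.50 and 2.99), Atoh8 (-0.96 and 0.93) and Pcsk6 (-0.66 and 1.09).

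The 3 that moved the same way in both intervals were Fads1, higher in each, and Abcg1 and Lrp5, lower in each. Without P25 replicate 2, 214 genes passed in both intervals, of 342 and 5634, and 180 of these were opposite and 34 the same. Fgf2, Myoc, C7, Cpt1a, Loxl1 and Adam12 passed between P35 and P49 but not between P21 and P25, and the difference between the intervals was not tested.

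**Figure D5:**
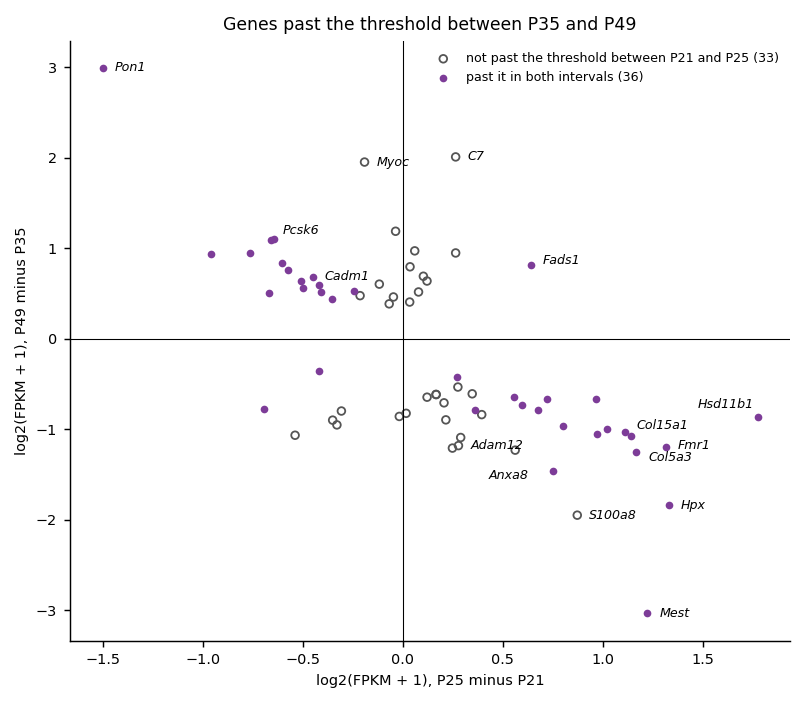
For the 69 genes past the threshold between P35 and P49, the log2(FPKM + 1) difference of that interval (vertical axis) is plotted against the difference of P25 minus P21 (horizontal axis). Filled points passed in both intervals (36 genes), 33 of them in the upper left or lower right, and open points only between P35 and P49.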

How the data were processed

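Per the labels, RNA of floated mature adipocytes from dorsal skin was made into libraries with the NEBNext Ultra RNA kit. Per the submitters' processing notes, CASAVA, FastQC, STAR 2.5 and HTSeq 0.6.1 were used on mm10 (GRCm38). The annotation release and the use of strand are not given in the sources used here. The deposited table gives FPKM, as normalized by the authors, for 35275 genes, 10482 at 0 in all libraries. FPKM times gene length gave whole multiples of 1 read within 0.05 read for 100% of genes, so reads were recovered for depth and for 1 alternative.

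Genes had to reach 1 FPKM in at least 3 libraries. Values were modelled as log2(FPKM + 1) in limma 3.58.1 under R 4.3.3 (with statmod 1.5.0), giving each age its own mean, pooling the spread of the 15 libraries and using limma's trended and robust moderation. Two-sided p-values of P49 minus P35 were adjusted by the Benjamini-Hochberg method over the 12259 genes, at a threshold of 0.05. The pooled spread was used because 3 libraries per age leave few degrees of freedom. Named genes were the 15 largest rises and 15 largest falls past the threshold with a mean of at least 5 FPKM at the higher age, no overlap and an established symbol, beside the 2 largest called members of each list per direction and a set of cell markers. Of 691 list genes in 43 lists, 689 were in the table and 578 were tested. Members, lists and rules were chosen with earlier results of these data known, and lists are described by counts and medians without a set test. Alternatives were other scalings, pseudocounts, filters, fits, library weights, the replicate number as a block, voom on recovered reads and each library left out. Figures were drawn with Python 3.11.15 and matplotlib 3.10.9.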

Additional observations from a re-analysis of the deposited data

How the results depend on the processing

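The count of 69 genes past the threshold was 269 with only P35 and P49 in the fit, 1119 with library weights and 21 with a 2-fold minimum. Leaving out each library in turn gave 13 to 342, the highest without P25 replicate 2, which keeps all 69. It was 72 with quantile normalization, 85 with median-ratio scaling, 68 with a pseudocount of 0.1, 52 without the filter, 72 without trend and robust fitting, and 60 by voom on recovered reads (57 kept). Of genes named above, the fit without the filter ended the calls of C7 (adjusted p = 0.0835), Myoc (0.0551), Ltc4s (0.0547), Pde2a (0.0587), Abcg1 (0.0654), Hsd11b1 (0.0835), Klf9 (0.0835), Nudt6 (0.0925), S100a8 (0.0769) and Lrp5 (0.0851). A pseudocount of 0.1 ended those of C7 (0.164), Myoc (0.094) and Nudt6 (0.0553). Quantile normalization ended Nudt6 (0.1) and Hsd11b1 (0.0557), which median-ratio scaling also ended (0.0562). With only P35 and P49, S100a8 (0.0754) and Klf9 (0.0527) were lost, and without trend and robust fitting Nudt6 (0.0519) and Lrp5 (0.0608). Voom also ended Hsd11b1 (0.0652) and Nudt6 (0.0531). The 36 genes also called between P21 and P25 became 214 without P25 replicate 2. With the replicate number as a block 91 genes passed, 60 of the 69 among them, and Klf9 (0.0556) and Lrp5 (0.068) did not. Same-numbered P35 and P49 libraries correlated at -0.184, 0.254 and 0.162 in their deviations from the age means, and not every library correlated best with its own number, so they share only that number. Of the 24 settings, all kept the direction of all 69 genes. The cause of these differences in counts was not tested. A level of 0.0931 to 0.129 FPKM, 3 reads on 1 kb, lies below the filter of 1 FPKM. Genes near it in all libraries were not tested in the main fit, and the detectability of their differences was not measured.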
